A study of Homo sapiens with 3 samples.

Results

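The genes of the proteasome were taken as every gene whose symbol in the deposited cluster names reads PSM, a letter from A to G, and a number. They carried 209 of the 40843 clusters of C-to-U editing, with 76 of 14295 in replicate 1, 69 of 15181 in replicate 2 and 64 of 11367 in replicate 3. These clusters lay in 32 of the 48 genes that RefSeq lists under such symbols, out of 9904 gene names with a cluster in the whole series. The samples were 3 replicates of HEK293XT cells, a HEK293T human embryonic kidney line made for lentivirus packaging, with the genotype given as WT. In all of them doxycycline had induced for 72 h a fusion of the RNA-binding protein RBFOX2 with the cytidine deaminase APOBEC1, which edits C bases near the sites where the fusion binds RNA. The labels give transient transfection as the treatment, while their growth text describes stable lines. All samples belong to 1 condition, and no cells without the fusion were analysed here, so editing that does not depend on RBFOX2 binding could not be subtracted. A cluster is a stretch of windows whose editing passed the authors' test, and a gene without a cluster may still be edited below that threshold.

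The proteasome is the large protease that degrades ubiquitin-tagged proteins in the cytosol and nucleus. Its core particle is a barrel in which outer alpha rings gate the entrance and inner beta rings hold the peptidase sites. The regulatory particle caps the barrel, with ATPases that unfold substrates and non-ATPase subunits that bind ubiquitin chains and remove them. Other activators, an inhibitor and dedicated assembly factors complete the set of genes, and RBFOX2 is best known as a regulator of splicing that binds UGCAUG-type motifs.

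Of the 48 genes, 18 had a cluster in all 3 replicates, 9 in 2, 5 in 1 and 16 in none. Among genes with any cluster, 56.3% of the proteasome genes and 37.9% of all 9904 genes had one in all 3 replicates. Neither share was adjusted for read depth. Reads in proteasome clusters numbered 14699, 11096 and 10004, of which 314, 293 and 196 were edited. The 5 genes with the most edited reads, PSMD4, PSMA2, PSMD1, PSMB2 and PSMD10, held 329 of these 803 edited reads. These totals are not scaled to the depth or length of a transcript, and the 5 genes belong to the alpha ring, the beta ring, the regulatory particle and its assembly factors.

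**Figure D1:**
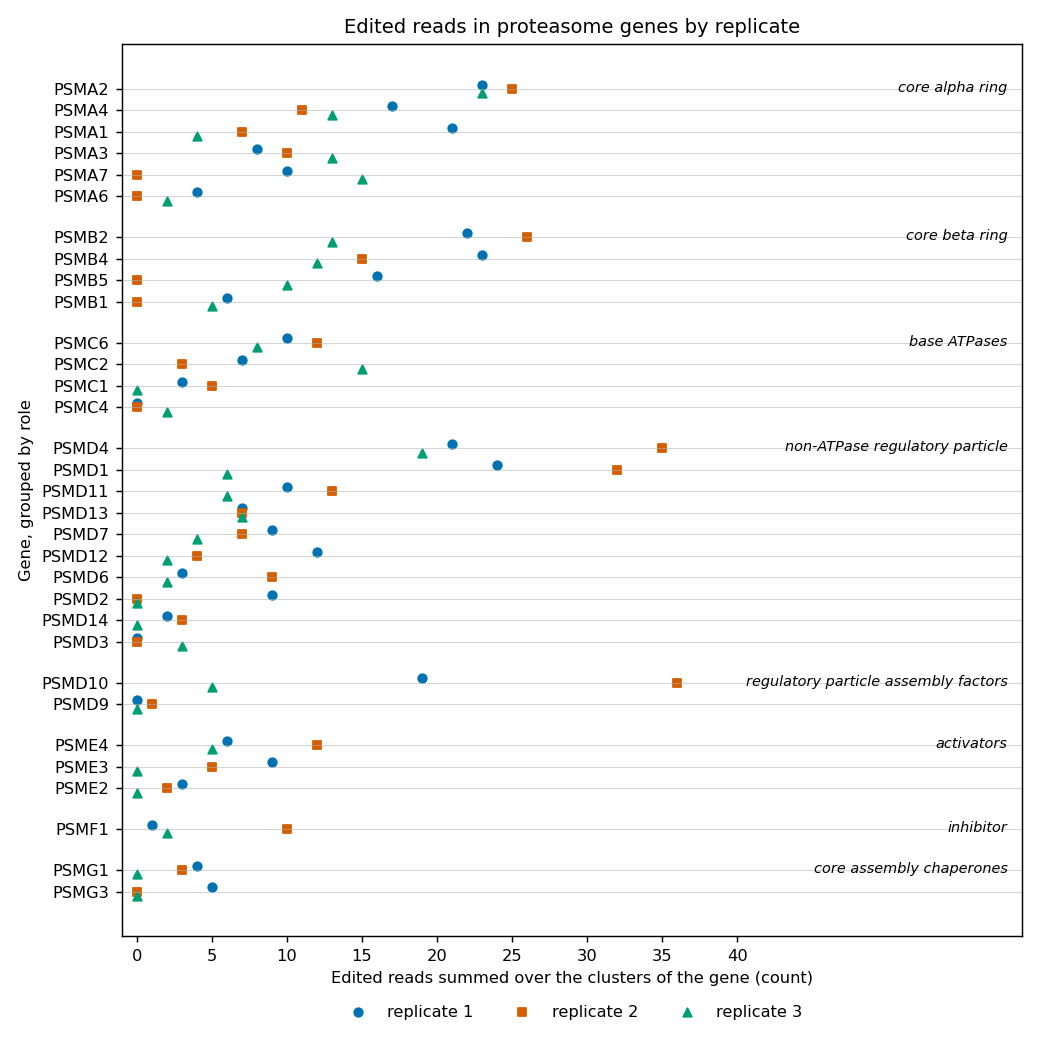
Edited reads (count, x axis) summed over the clusters of each of the 32 proteasome genes with a cluster (y axis, grouped by role), with 1 marker per replicate and 0 where a replicate has no cluster. PSMA2 stayed between 23 and 25 edited reads, whereas PSMD10 ranged from 5 to 36 and PSMD1 from 6 to 32.

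In the alpha ring, 6 of 8 genes had clusters, and these 47 clusters held 206 edited reads at a median mean read depth of 181 reads. PSMA5 and PSMA8, the latter a testis subunit, had none. PSMA2, an alpha subunit, had 23, 25 and 23 edited reads in replicates 1, 2 and 3, among 1386, 1364 and 1282 reads. The 3 totals were nearly equal, and most of the loci behind them were shared by 2 replicates. PSMA2 clusters fell into 7 loci (chains of overlapping clusters) in 5 exons on chromosome 7, of which 6 were found in 2 replicates and none in all 3. The pooled edit fraction, which is edited C bases over covered C bases, was 0.851%, 0.716% and 0.632% in these clusters. PSMA1, PSMA3 and PSMA4, which sit in the same ring, also had clusters in every replicate, with 21, 7 and 4, with 8, 10 and 13, and with 17, 11 and 13 edited reads.

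The only intronic cluster of the family was in PSMA7, an alpha subunit, in intron 1 as numbered in the file (chromosome 20, 60712201 to 60712245, minus strand, hg19) and only in replicate 1. Exons and introns share 1 numbering there, as in exon 0, intron 1 and exon 2 of PSMA7. Exon numbers given here are therefore not counts of exons. The intronic cluster had 2 edited reads among 247 at a mean read depth of 245. Its C bases, however, were covered 4.83 times on average, so its edit fraction of 3.45% rested on 58 covered C bases. Intronic clusters made up 2.06% ± 0.327 (SD, n = 3) of all clusters.

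In the beta ring, 4 of 7 constitutive genes had clusters, 29 in all with 148 edited reads. Of the catalytic subunits, PSMB5, which carries the chymotrypsin-like site, had clusters in replicates 1 and 3 with 16 and 10 edited reads. Of those 10, 4 lay in a cluster that also carries the name of AL132780.1. PSMB6 and PSMB7, which carry the other sites, had no clusters. PSMB3, a structural subunit, also had none, as did the immunoproteasome subunits PSMB8, PSMB9 and PSMB10 and the thymus subunit PSMB11. PSMB2, a structural beta subunit, had 22, 26 and 13 edited reads. Its 13 clusters lay in 2 exons, and both of its loci found in all 3 replicates were in exon 0, which on the minus strand is the annotated 3′ end feature. The first, at 36067546 to 36067695 on chromosome 1, had 5 of 63, 3 of 45 and 6 of 80 reads edited. Its clusters had 75, 60 and 150 bases, and its edit fraction varied more, at 3.25%, 1.77% and 0.967%. The second, at 36068446 to 36068685, had 8 of 82, 6 of 90 and 3 of 60 reads edited. Its clusters in replicates 2 and 3, of 165 and 30 bases, shared no base and were joined through that of replicate 1. The share of edited reads was 7.37% ± 0.645 at the first and 7.14% ± 2.41 at the second (SD, n = 3), a difference between the loci that was smaller than the spread between replicates.

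Among the base ATPases, 4 of 6 genes had clusters, 24 in all with 65 edited reads, at a median depth of 70.3 reads. PSMC6 and PSMC2, which belong to the hexamer that unfolds substrates, had clusters in all replicates, and PSMC3 and PSMC5 had none. PSMC6 had 10, 12 and 8 edited reads and PSMC2 had 7, 3 and 15. None of the 12 PSMC6 or 8 PSMC2 clusters was found in all 3 replicates.

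Among the non-ATPase subunits of the regulatory particle, 10 of 11 genes had clusters, 69 in all with 256 edited reads. Only PSMD8, a lid subunit, had none. PSMD4, a ubiquitin receptor of the particle, carried the locus with the most edited reads of the family, in exon 18 (chromosome 1, 151239800 to 151239949, plus strand, hg19). There, 21 of 383, 35 of 467 and 18 of 278 reads were edited in replicates 1, 2 and 3, with Wilson 95% intervals of 3.61% to 8.24%, 5.44% to 10.2% and 4.13% to 10.0%. These counts come from clusters of 90, 120 and 120 bases, whose bounds differed between replicates. The mean share was 6.48% ± 1.01 (SD, n = 3) and the intervals of all replicates overlapped. The edit fraction was 0.923%, 1.48% and 1.33%, at mean read depths of 208, 228 and 113. PSMD4 had only 1 other cluster, in replicate 3.

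PSMD1, the large scaffold subunit that binds substrate receptors, had 24, 32 and 6 edited reads in 15 clusters over 9 exons. Replicate 3 was low, and of its 10 loci 4 were found in more than 1 replicate. The locus in exon 44 (chromosome 2, 232026100 to 232026144, plus strand, hg19) was the only one of the family with the same bounds in all 3 replicates. It had 7 of 134, 7 of 137 and 4 of 96 reads edited, with an edit fraction of 0.589% ± 0.0787 (SD, n = 3). Every edited read there carried a single edited base. PSMD2, the other large scaffold subunit, had clusters only in replicate 1, with 9 edited reads.

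Of the assembly factors of the regulatory particle, PSMD10 (gankyrin), which holds an ATPase module during assembly, had 19, 36 and 5 edited reads in 11 clusters. PSMD9 had 1 cluster that also carries the names of WDR66 and RP11-87C12.2, and PSMD5 had none. The 2 recurrent loci of PSMD10 lay next to each other in exon 0, its annotated 3′ end feature on the minus strand of the X chromosome. At 107327918 to 107328067, 9 of 240, 12 of 140 and 1 of 77 reads were edited, and at 107328068 to 107328247, 7 of 175, 10 of 228 and 3 of 115. The bounds differed between replicates, with 135, 90 and 75 bases at the first locus and 90, 135 and 30 at the second. By share of edited reads, the first varied most between replicates of the 6 loci found in all of them, at 4.54% ± 3.70 (SD, n = 3). By edit fraction, the first PSMB2 locus varied most, at 2.00% ± 1.16 against 1.55% ± 0.912 at this PSMD10 locus. The single edited read of the PSMD10 locus in replicate 3 carried 5 edited bases. The edit fraction there was thus 1.45% beside 0.690% in replicate 1.

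**Figure D2:**
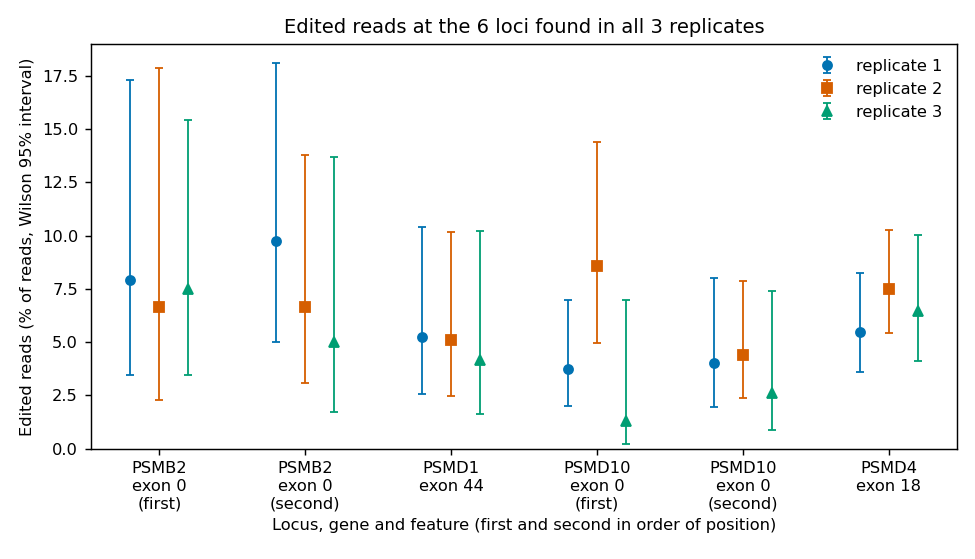
Share of edited reads (%, y axis) at the 6 proteasome loci found in all 3 replicates (x axis, by gene and feature number of the file), with 1 marker per replicate and bars for the Wilson 95% interval. The intervals of a locus overlap between replicates at all 6 loci, and PSMD10 (first) has the widest range, from 1.30% to 8.57%.

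The activators had 19 clusters in 3 of 4 genes with 42 edited reads. PSME4, the large single-chain activator, had clusters in all replicates with 6, 12 and 5 edited reads, PSME2 and PSME3 in replicates 1 and 2, and PSME1 in none. The inhibitor PSMF1 had 1, 10 and 2 edited reads. The core assembly chaperones had 4 clusters, 3 in PSMG1 and 1 in PSMG3, none of them in replicate 3.

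Genes of the core particle and of the other roles lacked clusters in different replicates. All 4 core genes with clusters in only 2 replicates (PSMA6, PSMA7, PSMB1 and PSMB5) lacked one in replicate 2. All 5 such genes of the other roles (PSMC1, PSMD14, PSME2, PSME3 and PSMG1) lacked one in replicate 3. Among all 2812 genes with clusters in 2 replicates, 28.3% lacked replicate 1, 24.5% replicate 2 and 47.2% replicate 3. In the same way, core genes held 0.236%, 0.140% and 0.237% of all edited reads of replicates 1, 2 and 3, whereas regulatory particle genes with their assembly factors held 0.214%, 0.249% and 0.170%. By edited reads, replicate 2 was thus lowest for the core and highest for the regulatory particle. By clusters, it was lowest for both, since core genes held 0.182%, 0.132% and 0.264% of all clusters and regulatory particle genes 0.273%, 0.244% and 0.255%. Both PSMA6 clusters also carry the name of KIAA0391. This split was chosen after the values were seen and was not tested.

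Proteasome clusters were deeper than most. Their median mean read depth was 91.2, 74.8 and 72.4 reads, against 25.1, 24.7 and 21.1 for all clusters, and 65.6% to 76.8% of them had a depth of at least 50, against 24.6% to 29.1% of all clusters. Their median edit fraction was 1.07% ± 0.117 against 1.70% ± 0.0909 (SD, n = 3). Edit fraction falls with depth among clusters that passed the threshold, so each cluster was compared with the median of all clusters of the same replicate and depth class. On this log2 scale the median proteasome cluster lay at 0.025, 0.20 and 0.11, a mean of 0.11 ± 0.09, and the exact two-sided sign-flip permutation test over replicates gave p = 0.25, the smallest that 3 replicates allow. The direction depended on the measure, since the value was -0.21 with the fraction of edited reads in place of the edit fraction, and 0.010 with classes of coverage per C base in place of depth. The CCT chaperonin, another abundant complex of many subunits, lay at 0.11 ± 0.12 on the same scale, and the difference of 0.0064 between the complexes had an SD of 0.18 and an exact sign-flip permutation p of 1.

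**Figure D3:**
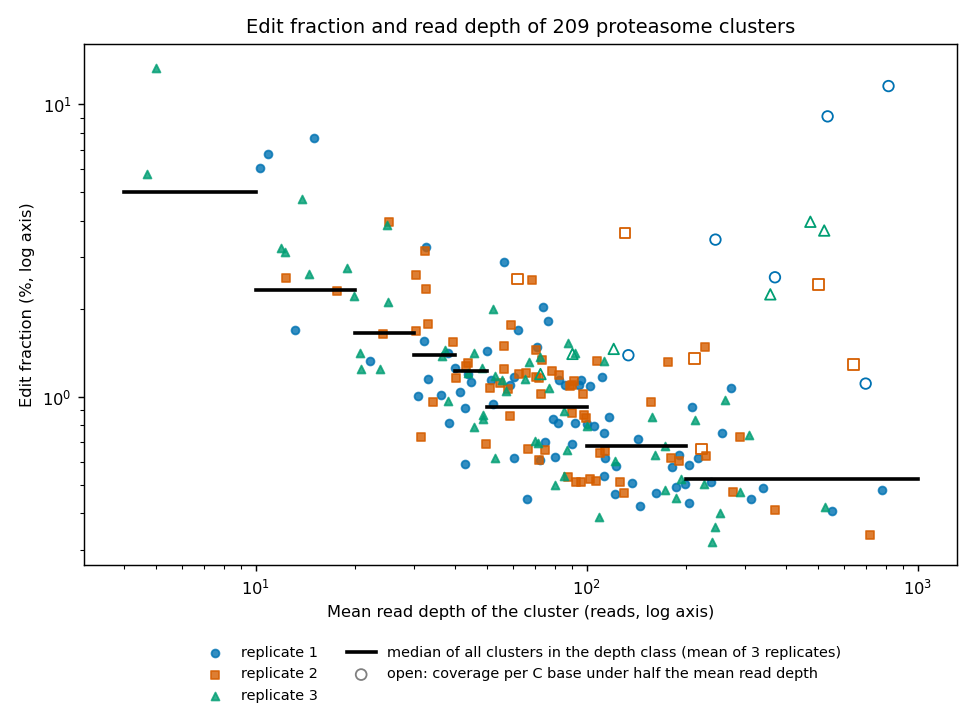
Edit fraction (%, log axis) against mean read depth (reads, log axis) of the 209 proteasome clusters, with a marker per cluster by replicate and black lines for the median of all clusters in a depth class, averaged over 3 replicates. Clusters scatter on both sides of the lines, and the open markers, whose coverage per C base was under 0.5 times the mean read depth, all stand above the line of their class.

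Coverage of the C bases set some of the highest edit fractions apart. Coverage per C base was at least 0.5 times the mean read depth in 191 proteasome clusters, with a median ratio of 99.4%, and under it in the other 18, 6 per replicate. All 18 had a mean read depth of at least 61.9 reads and at most 3 edited reads. PSMB4, a beta subunit at a depth of 359 to 816 reads, held 8 of them, PSMA4 held 3, PSMA3 and PSMA7 held 2 each, and PSMA6, PSMD13 and PSME2 held 1 each. At a depth of at least 50, such clusters made up 12.0% ± 1.98 of the proteasome clusters and 8.54% ± 0.953 of all clusters (SD, n = 3).

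PSMB4 also held the highest edit fraction of the family at that depth, 11.5% in replicate 1, in exon 2 within 151374168 to 151374242 on chromosome 1. It came from 3 edited bases among 26 covered C bases in a cluster with a mean read depth of 816, where its 4 C bases were covered 26 times in all. In the same exon, the PSMB4 cluster at 151373778 to 151373807 had its C bases covered 772 and 722 times on average in replicates 1 and 2. Its mean read depths were 780 and 720. There, 16 of 978 and 12 of 879 reads were edited and the edit fraction was 0.481% and 0.337%. Without the 18 clusters, the highest edit fraction at a depth of at least 50 was 2.90%, in PSMG1 in replicate 1. What lowered the coverage of C bases was not tested.

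**Figure D4:**
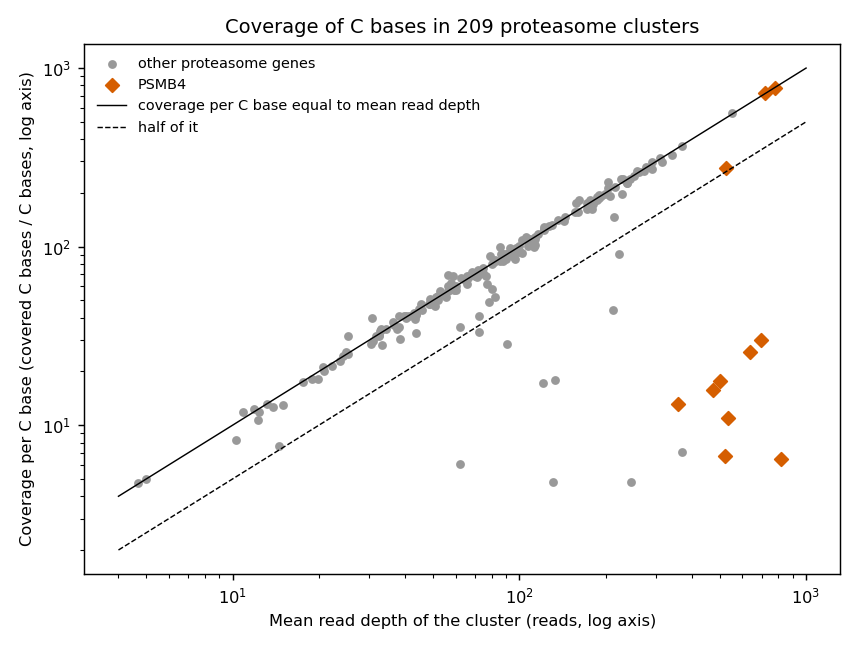
Coverage per C base (covered C bases over C bases, log axis) against mean read depth (reads, log axis) of the 209 proteasome clusters, with PSMB4 as orange diamonds, a solid line where both are equal and a dashed line at 0.5 times the depth. Most clusters lie on the solid line, and 8 of 11 PSMB4 clusters lie far below it, at 0.797% to 4.31% of the depth.

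Edited bases per edited read, pooled over clusters, were 1.62, 1.77 and 1.83 in the proteasome genes of replicates 1, 2 and 3 and 1.59, 1.67 and 1.66 in all clusters. Clusters with at least 3 edited bases per edited read numbered 10, 11 and 20, which is 13.2%, 15.9% and 31.3% of the proteasome clusters against 20.3%, 21.5% and 22.6% of all. Of these 41 clusters, 34 rested on at most 2 edited reads. The extreme was PSMG1, an assembly chaperone of the alpha ring, whose exon 4 cluster in replicate 1 had 16 edited bases on 2 of 303 reads. In 62 of the 209 clusters (29.7%) every edited read carried a single edited base, against 36.4% of all clusters. PSMD4, with the most edited reads, had 1.25 edited bases per edited read over its 75 edited reads.

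Recurrence of clusters was then examined. Of the 167 proteasome loci, 131 (78.4%) were found in 1 replicate, 30 (18.0%) in 2 and 6 (3.59%) in all 3. Of all 33244 loci, 83.4% were found in 1, 11.9% in 2 and 4.77% in all 3. Overlapping clusters in both other replicates were found for 6, 5 and 5 clusters of replicates 1, 2 and 3, which is 7.65% ± 0.353 against 11.2% ± 1.71 of all clusters (SD, n = 3). An overlap in at least 1 other replicate was found for 37.2% ± 5.12 of the proteasome clusters and 32.4% ± 2.84 of all clusters. The Wilson 95% intervals of the proteasome shares found in all replicates, 3.67% to 16.2%, 3.13% to 15.9% and 3.38% to 17.0%, hold the share of all clusters. They treat clusters of the same gene as independent and take no account of depth, so they are no test of a difference. With 1 replicate left out, 13.6% of the proteasome clusters recurred between replicates 2 and 3, 28.8% between replicates 1 and 3 and 24.9% between replicates 1 and 2, against 21.8%, 21.3% and 22.2% of all clusters.

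Recurrence was next given by depth class. Under a depth of 50, 8.62% ± 2.18 of the proteasome clusters and 5.42% ± 1.72 of all clusters were found in all replicates. The shares were 7.17% ± 3.06 and 18.6% ± 4.23 at 50 to 100, and 9.32% ± 1.11 and 30.1% ± 2.33 at 100 to 200. At 200 and over they were 5.42% ± 5.05 and 46.2% ± 4.69 (SD, n = 3 throughout). With an overlap in at least 1 other replicate as the criterion, the proteasome shares were 31.5%, 32.2%, 40.8% and 52.6% from the lowest to the highest class, against 24.1%, 46.8%, 60.8% and 68.7% of all clusters. By this criterion the shares rose with each class in both sets, and from a depth of 50 upwards those of the proteasome were lower. The share found in all replicates rests on 2 to 5 proteasome clusters per class. The deepest class holds 38 proteasome clusters with a median of 5 edited reads, whereas the median over all clusters of the class was 10. Among clusters with at least 11 edited reads, 4 of 10 proteasome clusters and 79.6% of all clusters recurred in every replicate. With 6 to 10 edited reads, 7 of 25 proteasome clusters and 40.8% of all clusters did. The 10 clusters were not independent, since 3 were the same PSMD4 locus, counted in each replicate, and 2 were the same PSMB4 locus. In at least 1 other replicate, however, all 10 proteasome clusters with at least 11 edited reads were found, against 94.6% of all clusters. With 6 to 10, 18 of 25 were, against 74.9%. With 3 to 5, the largest proteasome class, 34.6% of 81 were, against 41.5%. The shares were 22.8% and 22.7% with 2 edited reads, and 25% and 18.2% with 1. Found in all replicates were 4 of the 81 proteasome clusters with 3 to 5, against 12.98% of all clusters. With 2, 0 of 57 were, against 3.93%, and with 1, 1 of 36, against 2.21%. The shares with at least 6 edited reads describe few clusters from few genes, and none of these shares was tested.

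**Figure D5:**
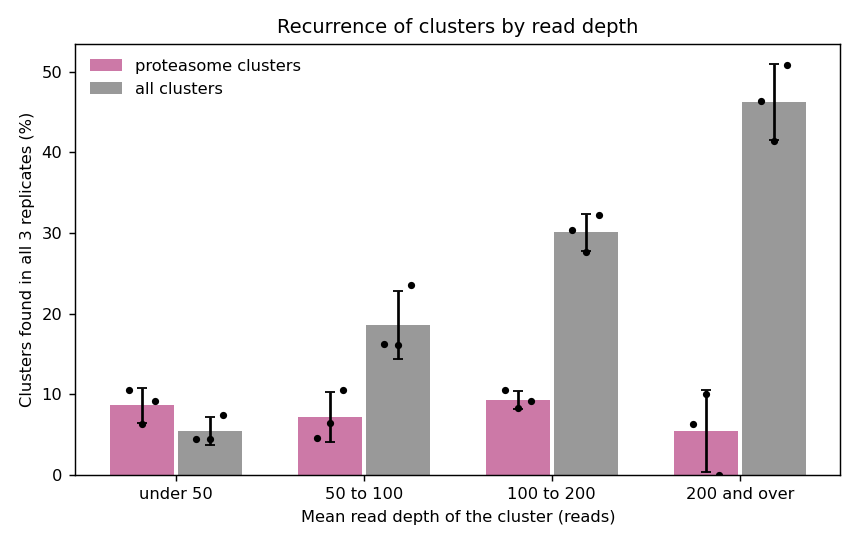
Share of clusters found in all 3 replicates (%, y axis) by mean read depth of the cluster (reads, x axis), with bars for the mean over replicates, error bars for the SD and points for the 3 replicates. All clusters rise from 5.42% to 46.2%, while proteasome clusters, with 2 to 5 such clusters per class, lie between 5.42% and 9.32%.

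Differences between replicates at single loci were tested with Fisher's exact test of edited against other reads, at clusters with identical bounds in a pair of replicates. None of 8 proteasome comparisons was called at an adjusted p under 0.05, where 0.395% of 1518 comparisons in the series were. None had an unadjusted p under 0.05, against 3.36% of the series, and the smallest Fisher's exact p was 0.606, in PSMD12. When overlapping clusters were also matched, 0 of 47 proteasome comparisons were called, against 0.386% of 9072. The smallest unadjusted Fisher's exact p among them was 0.0356, with an adjusted p of 1, at the first PSMD10 locus between replicates 2 and 3. No difference between replicates was detected, which does not show that the shares were equal. Only loci with clusters in both replicates could enter, so the 131 of 167 proteasome loci found in 1 replicate were not compared.

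Clusters of minus-strand genes could be placed along the annotation, because the feature numbers of the file rise with genome position and exon 0 is then the annotated 3′ end feature. Exon 0 need not be the 3′ end of the transcripts expressed in these cells, which was not examined. No cluster of PSMA1, PSMA2, PSMB5 or PSMD6 lay in exon 0, and the PSMA1 cluster in exon 22 also carries the name of COPB1. In proteasome genes on the minus strand, 18 of 36, 10 of 27 and 12 of 27 clusters lay in exon 0. Their mean share was 43.8%, against 61.3% ± 2.55 of all minus-strand clusters (SD, n = 3), and each proteasome replicate was below the lowest value of all clusters, 58.9%. These clusters come from few genes, and the difference was not tested.

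Genes that work with the proteasome but carry other symbols were listed apart. Of 29 such genes, 27 had a cluster and 17 had one in all 3 replicates. The ubiquitin genes UBB and RPS27A, the latter a fusion with a ribosomal protein, had the most edited reads of the list, with 209, 177 and 165 and with 141, 246 and 172. These totals exceed those of PSMD4 in every replicate, again without scaling to depth or length. SEM1, a small lid subunit, had 26, 10 and 17 edited reads, with a locus found in all 3 replicates. Of the 9 CCT chaperonin genes, 8 had a cluster, 5 of them in all replicates. Among genes with a cluster, the share with one in all 3 replicates was thus 62.5% for CCT and 63.0% for the listed genes. It was 56.3% for the proteasome genes, so their higher share than that of all genes was not particular to them.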

How the data were processed

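RNA was sequenced from 3 replicates that the study calls biological. The authors found C-to-U edits with SAILOR, without common SNPs, and called clusters with FLARE in 30-base windows at an adjusted p-value of 0.1, merging within 15 bases, with separate background rates for exons, introns and depth classes. STAR and hg19 are named in the submitters' processing notes. Per the file headers, the deposited counts (reads, edited reads, C bases, covered C bases and edited C bases) are unscaled, the edit fraction and the fraction of edited reads are ratios of these counts, the mean read depth is a coverage signal not scaled to library size, and the authors' score is a negative binomial probability. Windows below the threshold were not analysed here, and library totals were not used.

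Starts were written as 1-based positions. Same-strand clusters that shared 1 base or more between replicates were matched, and loci are chains of such clusters, whose members need not all overlap each other. Depth classes had edges at 10, 20, 30, 40, 50, 100 and 200 reads. Fisher's exact tests were two-sided, with Benjamini-Hochberg adjustment over all loci and the 3 pairs of replicates. Wilson intervals cover counting error only, since PCR reads are not independent molecules and clusters of the same gene are not independent. Alternatives were scores of at least 0.95 or 0.99, depths of at least 50, 2 or more edited reads, other overlaps and measures, and leaving out each replicate. Tests ran in SciPy 1.17.1 with pandas 2.3.3 and NumPy 2.4.6 under Python 3.11.15, figures in matplotlib 3.10.9, after checks of the code on simulated clusters.

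The genes, their roles and the lists were chosen with earlier results of these data known. Named by rule were loci found in all 3 replicates, the 5 genes with the most edited reads, genes with an intronic cluster and the highest edit fraction at a depth of at least 50. Other genes were named after their values were seen. Gene names of 5 clusters include another gene. RefSeq symbols are those of GRCh38.p14, from which no position was taken. Cluster sequences were not analysed here, and some genes of the pathway list are not reported by name.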

Additional observations from a re-analysis of the deposited data

Results flagged for a closer look

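PSMC1P1, a gene whose symbol begins like that of PSMC1 but falls outside the symbol rule, had 5 edited reads summed over the replicates. It was flagged because this sum exceeded 3, the limit that a count of 0 allows. Neither cluster alone exceeded that limit, and clusters exist only where edits were called, so the limit decides nothing here. The edited reads were 2 of 21 at 68685037 to 68685081 on chromosome 3 in replicate 1 and 3 of 5 at 68685967 to 68686011 in replicate 2. RefSeq lists PSMC1P1 as a pseudogene.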

How the results depend on the processing

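Of 22 alternatives other than leaving out a replicate, 9 moved the value by more than the spread between replicates or, for the number of clusters, by over 1.5 times, and 13 did not. The mean of 69.7 proteasome clusters per replicate fell to 35.3 at a minimum score of 0.99, to 50.7 at a minimum depth of 50 and to 57.7 with at least 2 edited reads. The depth-adjusted edit fraction (log2, 0.11) was 0.24 with means, -0.21 with the fraction of edited reads, 0.20 at a minimum depth of 50 and 0.010 with coverage per C base for the depth classes. The share found in all replicates (7.65%, all clusters 11.2%) was 4.77% where overlaps had to cover 50% of each cluster (all clusters 5.30%), 6.72% at a minimum score of 0.95 (10.6%) and 6.02% at a minimum depth of 50 (23.2%). It was 8.38% (11.4%) without clusters of low coverage per C base, an alternative chosen after seeing the data. Leaving out each replicate in turn gave 66.5 to 72.5 clusters, 0.07 to 0.16 on the log2 scale and 13.6% to 28.8% found in both remaining replicates, a less strict criterion than all 3. Fisher's exact test called 0 proteasome loci under every alternative run. No paired analysis was possible because the series holds 1 group. The causes of these shifts were not tested. Few edited reads limit the precision: 174 of 209 clusters had at most 5.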
